A study of Mus musculus with 4 samples.

Results

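Cd34 encodes a sialomucin of the surface of blood stem and progenitor cells. This account follows its transcript, 1 of 32285 gene features, together with the barcoded antibody against the CD34 protein, 1 of 13 surface antibodies counted in the same cells. Both were taken by name and not by a measured value, though earlier results of these data were known at the choice. The cells were Kit+ donor-type (CD45.2+) mouse bone marrow taken 10 weeks after transplantation, and a control group stood beside groups labelled as deleted for Mll3, for Mll4, or for the pair (Mll3/4), each a single library. The deleted genes are Kmt2c (MLL3) and Kmt2d (MLL4), a related pair of histone methyltransferases. The labels used here give neither the strain, the age of the animals, the driver of deletion, the number of animals pooled nor the host cells that remained. With 1 library per group, nothing below carries a replicate error, and no test between conditions was possible. Intervals cover counting error only, at the 95% level.

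CD34 marks most progenitors of the marrow and is lost as cells mature. In the adult mouse the most dormant stem cells carry little of it, multipotent and lymphoid-primed progenitors carry much, and myeloid progenitors are sorted by CD34 together with the Fc receptors CD16/32. Erythroid progenitors and maturing neutrophils have little or none. The protein belongs to a small family with podocalyxin (Podxl) and endomucin (Emcn) and interacts with the adaptor Crkl.

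The gene (ENSMUSG00000016494) lies on the plus strand of chromosome 1, from 194938819 to 194961279 on GRCm38. The 248 bases before its annotated start, chr1:194938571-194938818 (plus strand, RefSeq, GRCm38.p6), are shown because the factors counted below include members of the ETS, GATA, E-box, RUNX and MYB families. Capitals mark GGAA or its reverse complement, the core bound by ETS factors such as Fli1 and Erg.
Cd34 upstream: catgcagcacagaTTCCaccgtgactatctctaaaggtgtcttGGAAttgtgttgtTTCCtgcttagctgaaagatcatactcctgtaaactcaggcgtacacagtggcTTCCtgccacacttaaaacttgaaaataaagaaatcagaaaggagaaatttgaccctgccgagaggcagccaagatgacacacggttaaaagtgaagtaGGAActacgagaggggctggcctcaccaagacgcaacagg
The window held 5 GGAA cores on both strands together, 1 GATA and 2 AACNG (the core of a MYB site), and no CANNTG (E-box) or TGNGGT (RUNX core). No match overlapped another motif. Among 32851 RefSeq windows of this length, 93.3% held GGAA, 53.4% GATA, 74.0% AACNG, 66.0% CANNTG and 39.9% TGNGGT. A match of this kind is a description of letters. Each of these motifs is common in such windows. An annotated antisense gene, Gm16897, overlaps the end of Cd34. It had 35 UMIs (molecules counted once by their identifier) in control against 12399 for Cd34, and how the counting used strand is not stated.

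After filtering, 7146 control, 5860 Mll3-labelled, 5350 Mll4-labelled and 6917 Mll3/4-labelled cells remained, 25273 in all. Their median depths were 15754, 16964, 5142 and 9965 gene UMIs, and their median surface antibody counts were 1117, 1071, 1357 and 570. Between 9 and 24 cell barcodes were shared by any pair of libraries. Kit transcript, the basis of the sort, stood at 104.6 to 190 UMIs per 1000000 gene UMIs (CPM). Kmt2c was 27.2 CPM in the Mll3-labelled sample and 34.8 CPM in the Mll3/4-labelled sample against 47.9 CPM in control, and Kmt2d was 24.99 CPM in the Mll4-labelled and 24.8 CPM in the Mll3/4-labelled sample against 25.8 CPM. Neither gene differed 2-fold in any library, and a count at the 3′ end checks no deletion elsewhere in a gene, so the libraries are named here by their labels. Cell classes were named from clusters built without Cd34 and from markers that exclude it. Endothelial cells also carry CD34, and the 6 endothelial markers summed to 20.4 to 27.6 CPM per library, mostly Pecam1, with Cdh5 and Cldn5 at 0 in the Mll4-labelled and Mll3/4-labelled samples.

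Over all kept cells, Cd34 transcript was close to absent in the Mll3/4-labelled sample and within 2-fold of control in the other two. Control cells held 80.7 CPM (79.3 to 82.1, 12399 UMIs). The Mll3-labelled sample held 58.6 CPM (57.3 to 59.9, 7964 UMIs). The Mll4-labelled sample held 87.6 CPM (84.4 to 90.9, 2872 UMIs). The Mll3/4-labelled sample held 1.66 CPM (1.39 to 1.97, 129 UMIs). Sums over all cells cannot tell fewer Cd34-rich cells apart from less Cd34 per cell, which is why the classes are given below. Against control the log2 ratios were -0.46 (-0.50 to -0.42), 0.12 (0.06 to 0.18) and -5.60 (-5.86 to -5.35). Only the last passed 2-fold, among 11.7% of all tested genes that were at least 2-fold lower in that library. For comparison, 0.467% of genes were at least 2-fold lower in the Mll3-labelled sample and 5.74% at least 2-fold higher in the Mll4-labelled sample. The sign of the Mll4-labelled value turned to -0.15 when each cell's share of UMIs was averaged in place of summing, and under trimmed mean scaling the ratio was 0.015.

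The antibody showed the same outlying library. The median CD34 antibody count per cell was 8 in control (quartiles 5 and 20), 9 in the Mll3-labelled sample (6 and 26), 8 in the Mll4-labelled sample (5 and 18) and 1 in the Mll3/4-labelled sample (0 and 2). Cells above 19.7 antibody counts, the threshold a 2-component fit placed in control, made up 25.5% of control cells, 28.9% of Mll3-labelled, 23.9% of Mll4-labelled and 0.448% of Mll3/4-labelled cells. The last share is 31 cells. It has to be read against the antibody background of that library: 29.9% of its cells had no CD34 antibody count at all, against 0.81% in control, and its 23 neutrophil-like cells averaged 1.48 counts, against 6.58 in control. The part of this lower background in the antibody difference was not tested, and the transcript count does not depend on it.

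The share of cells with a Cd34 UMI was 38.1% in control, 33.2% in the Mll3-labelled sample, 22.0% in the Mll4-labelled sample and 0.448% in the Mll3/4-labelled sample. Depth moves this measure, so cells were thinned to 3000 UMIs, leaving out 217, 316, 757 and 201 shallower cells. The thinned shares were 20.2%, 16.5%, 16.5% and 0.19%. Neutrophil-like cells, which should lack the gene, had a UMI in 4.83% of control cells at a median depth of 13536.5, and in 1.19% after thinning. The thinned shares of the first 3 libraries were thus well above this level and that of the Mll3/4-labelled sample was below it.

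Within a library the readouts went together. Control cells above the antibody threshold held 309 CPM of Cd34 (303 to 315), and those below it 19.0 CPM (18.2 to 19.8). The corresponding levels were 225 and 6.99 CPM in the Mll3-labelled sample, 306 and 16.5 CPM in the Mll4-labelled sample, and 157 and 0.325 CPM in the Mll3/4-labelled sample. Antibody-positive cells carried 81.5% of all Cd34 UMIs in control, 90.9% in the Mll3-labelled, 85.8% in the Mll4-labelled and 80.6% in the Mll3/4-labelled sample. A Cd34 UMI was seen in 92.9% of the antibody-positive control cells and in 54.8% of the 31 positive Mll3/4-labelled cells.

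**Figure D1:**
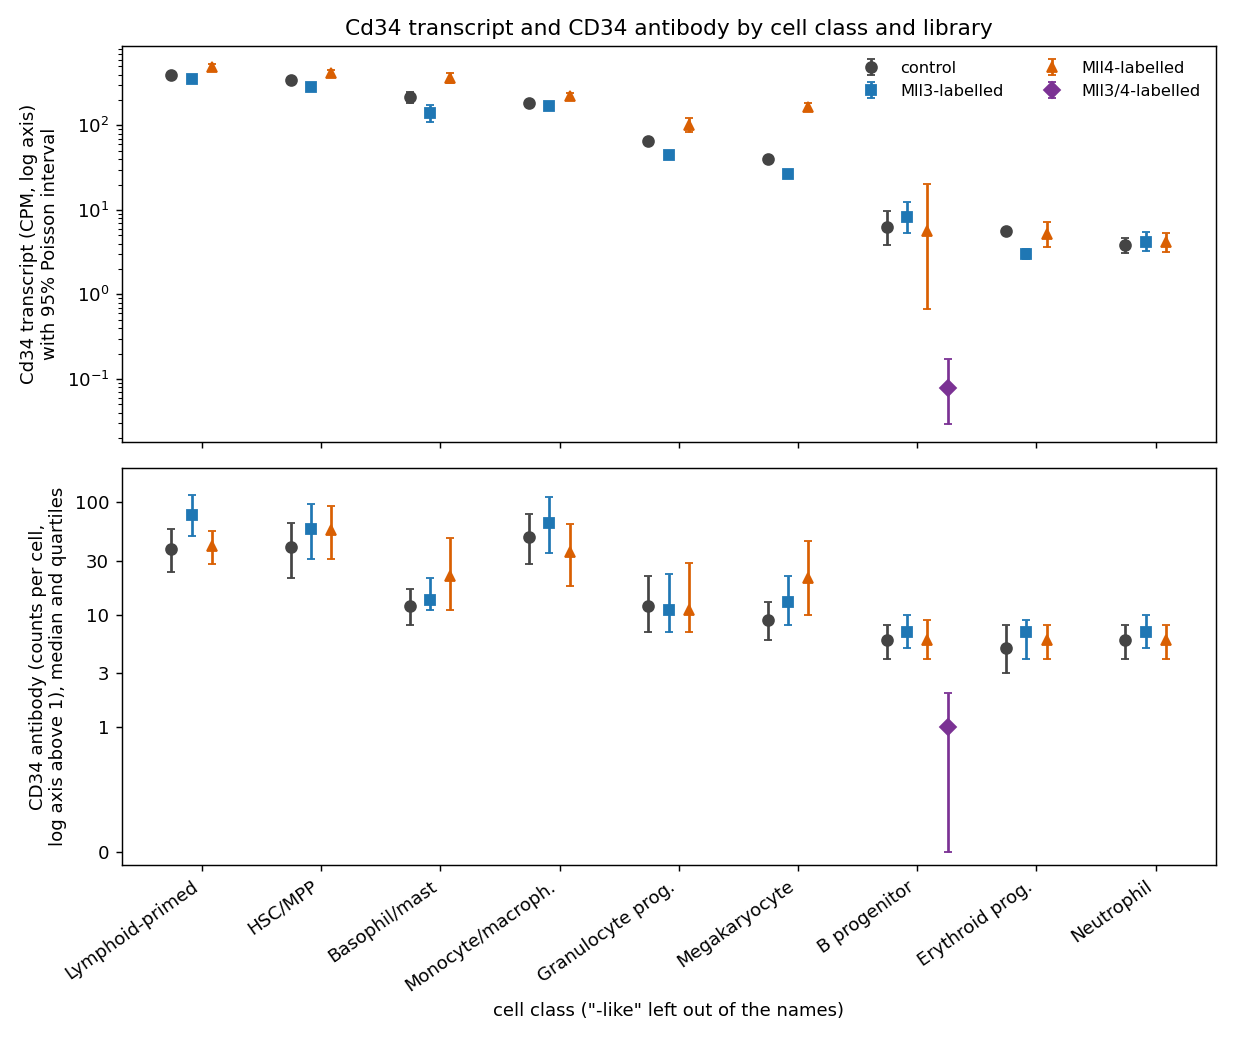
Cd34 transcript (upper panel, CPM on a log axis, bars are 95% Poisson intervals) and CD34 antibody count per cell (lower panel, median with quartiles) in classes with at least 50 cells in 2 or more libraries, 1 symbol per library. The 4 classes on the left held 139 CPM or more in every library plotted, and B-cell progenitor-like, erythroid and neutrophil-like cells held under 10 CPM.

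Across control classes the transcript ran over a range of about 100-fold. Lymphoid-primed progenitor-like cells, named from markers such as Dntt and Satb1, were highest at 393 CPM (382 to 404, 787 cells). Flt3, also among those markers, stood at 64.9 CPM there and at 51.3 CPM in HSC/MPP-like cells. It was the only marker of the class among the 10 leading genes of the cluster, beside the HSC/MPP marker Adgrl4. At a coarser clustering, with another seed or with doublets kept, no cluster had this name. HSC/MPP-like cells, which carry stem cell and multipotent progenitor markers such as Hlf and Procr, followed at 349 CPM (339 to 359, 824 cells). These intervals did not overlap. Basophil/mast-like cells held 215 CPM (187 to 246, 93 cells) and monocyte/macrophage progenitor-like cells 185 CPM (175 to 196, 282 cells), a neighbouring pair whose intervals overlapped. Granulocyte progenitor-like cells held 65.6 CPM (60.2 to 71.3) and megakaryocyte-like cells 39.98 CPM (36.8 to 43.4). At the low end, B-cell progenitor-like cells held 6.29 CPM (3.84 to 9.71, 20 UMIs), erythroid progenitor-like cells 5.59 CPM (5.05 to 6.17) and neutrophil-like cells 3.80 CPM (3.06 to 4.66). Of these low values, the intervals of the first 2 overlapped, as did those of B-cell progenitor-like and neutrophil-like cells. In 50 T/NK/innate lymphoid-like control cells all 12 UMIs came from 3 cells (39.9 CPM, 20.6 to 69.7).

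The order of the antibody was not the same. In control, monocyte/macrophage progenitor-like cells had the highest median, 49 counts (quartiles 28 and 78), above HSC/MPP-like cells with 40 (21 and 65) and lymphoid-primed progenitor-like cells with 38 (24 and 58). Basophil/mast-like cells had a median of only 12 (8 and 17), the value of granulocyte progenitor-like cells (7 and 22), although their Cd34 CPM was more than 3 times as high. Megakaryocyte-like cells had a median of 9, B-cell progenitor-like and neutrophil-like cells 6, and erythroid progenitor-like cells 5. The mean counts of the last 3 classes, 6.54, 6.58 and 6.17, did not separate and are taken as an approximate background of the stain. Erythroid progenitor-like cells were not uniform: the median was 5 in cells with no Cd34 UMI and 11 in the 30 cells with 3 or more.

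The antibody signal per transcript therefore differed between classes. Taking the mean count above that of neutrophil-like cells of the same library, control monocyte/macrophage progenitor-like cells had 27.9 antibody counts per 100 CPM, granulocyte progenitor-like cells 15.8, HSC/MPP-like cells 11.6, megakaryocyte-like cells 10.7, lymphoid-primed progenitor-like cells 9.53 and basophil/mast-like cells 4.01. The 50 T/NK/innate lymphoid-like control cells, with 12 UMIs in all, had 1.79. Among the 6 Cd34-rich classes just named, monocyte/macrophage progenitor-like cells were highest and basophil/mast-like cells lowest in the Mll3-labelled sample too, at 45.9 and 7.75. In the Mll4-labelled sample the highest of these was again the monocyte/macrophage progenitor-like class, at 18.2, and the lowest were lymphoid-primed progenitor-like cells at 8.19 and basophil/mast-like cells at 8.80. Cells differ in total RNA, and a CPM is a share of it: the control median depth was 23141.5 UMIs in the monocyte/macrophage progenitor-like class and 9255 in the basophil/mast-like class. The part of this in the ratio was not tested.

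**Figure D2:**
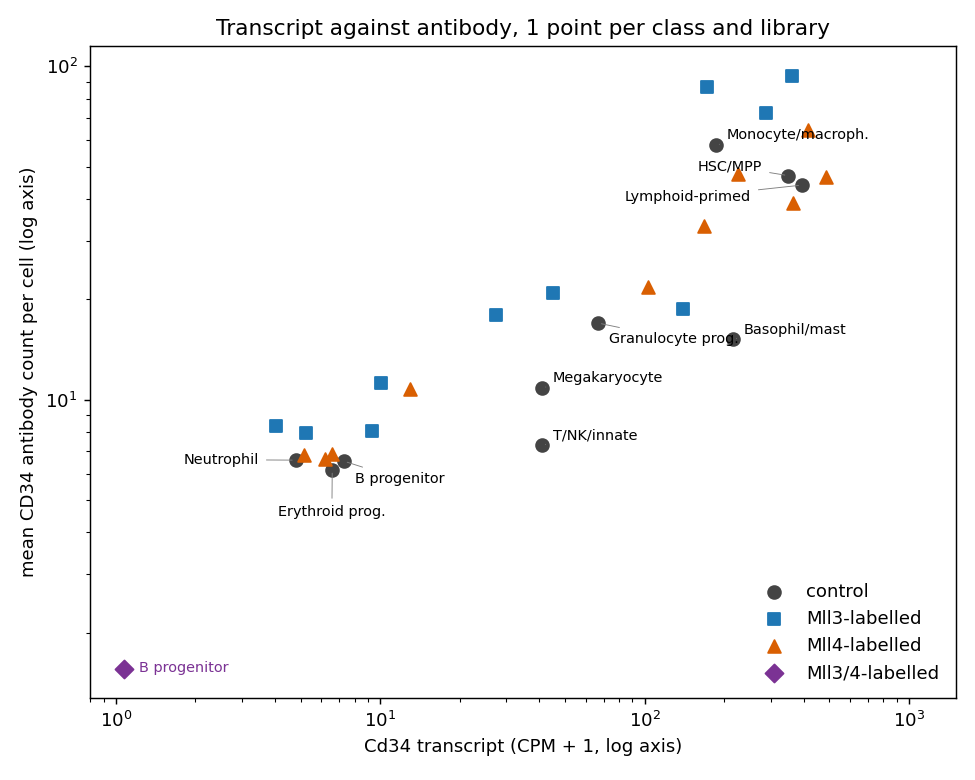
Mean CD34 antibody count per cell against Cd34 CPM + 1, both on log axes, 1 point for each class with at least 50 cells in a library (31 points). Names mark the control points and the Mll3/4-labelled B progenitor point at 0.0791 CPM. The 2 readouts rise together. The control and Mll3-labelled basophil/mast points and the control T/NK/innate point lie low for their transcript. Where a class also has a control point, the Mll3-labelled point lies higher on the antibody axis.

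Over the 31 class-library points with at least 50 cells, log2 transcript and log2 mean antibody count had a Pearson r of 0.92 and a Spearman rho of 0.88. The points share libraries, depth and the staining of a library, so the value is a description. Within a library r was 0.88 in control, 0.93 in the Mll3-labelled and 0.98 in the Mll4-labelled sample, over 10 points each. Without the B-cell progenitor-like points it was 0.89 over 27. Among 5993 genes with a mean of at least 20 CPM, Cd34 had the highest r with the CD34 antibody.

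Other antibodies followed their own transcripts to varying degrees over the same 31 points. CD16/32 against Fcgr3, CD150 against Slamf1 and CD48 against Cd48 each had an r of 0.91, CD41 against Itga2b 0.88, CD127 against Il7r and CD11b against Itgam 0.87, and Sca1 against Ly6a 0.86. CD135 against Flt3 had 0.71, CD201 against Procr 0.57, CD117 against Kit 0.50 and B220 against Ptprc 0.34. With the Cd34 transcript, the next antibody after CD34 was CD117 at 0.60.

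The genes whose level followed Cd34 most closely over these points were Fam117a (r 0.95), Cd27 (0.89), Ccl9 (0.89), Adgrl4 (0.88) and Gnptab (0.86). Cd27 is a receptor of the tumour necrosis factor family on early progenitors, Ccl9 a chemokine and Adgrl4 an adhesion receptor. Adgrl4 stood at 365 CPM in control HSC/MPP-like cells and 4.8 CPM in control neutrophil-like cells. Adgrl4 was also 1 of the markers that named the HSC/MPP-like class. The genes closest to the antibody were Fam117a (0.89), Plppr3 (0.86), Bex6 (0.83), Ccl9 (0.80) and Il11ra1 (0.80), the last a receptor subunit for interleukin 11. Farthest from the transcript were Med30, Prelid1 and E2f2, each at -0.74.

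Agreement held among cells of a single class. Cells of a class and library were ordered by their CD34 antibody count and divided into 5 groups of equal size (quintiles). Only class-library pairs with at least 250 cells were divided. Smaller pairs, such as Mll3-labelled monocyte/macrophage progenitor-like cells (245 cells, 1013 Cd34 UMIs), were left out. Of the divided pairs, 13 had at least 100 Cd34 UMIs. Cd34 CPM was higher in the top than in the bottom quintile in 13 of 13, with an interval of the ratio above 1 in each. It increased at every step in 11 of them. The fold from bottom to top ran from 1.35 to 20.7, with a median of 5.18. The quintiles also differ in how much antibody a cell caught in all. All 13 antibodies were therefore ranked by the same kind of ratio, here taken on CPM + 1. Ordering by CD34 gave the largest rise of Cd34 in 11 of 13 pairs. In the 2 erythroid progenitor-like pairs, ordering by CD41 gave a larger rise.

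**Figure D3:**
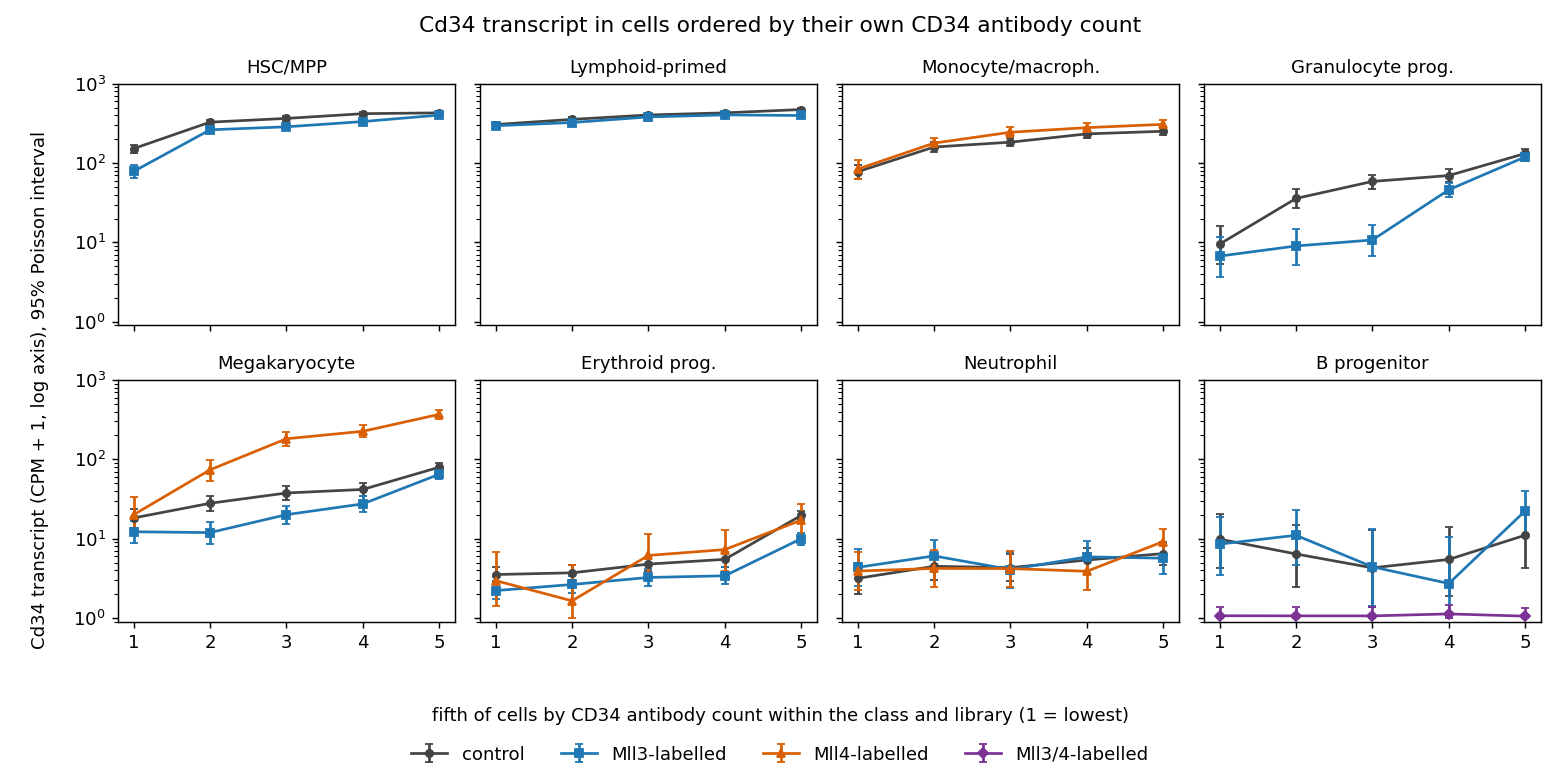
Cd34 CPM + 1 (log axis, 95% Poisson intervals) in quintiles of cells ordered by their own CD34 antibody count, for classes with at least 250 cells in a library. Lines rise in HSC/MPP, granulocyte, megakaryocyte and monocyte/macrophage panels, are shallow in lymphoid-primed cells, and stay under 30 CPM in the erythroid, neutrophil and B progenitor panels.

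HSC/MPP-like control cells went from 151 CPM in the quintile with the least antibody (median 11 counts) through 326, 364 and 417 to 427 CPM in the quintile with the most (median 92 counts), a 2.83-fold difference (2.50 to 3.21). The median depth of these quintiles went from 11730 to 19386.5 UMIs. The same class of the Mll3-labelled sample went from 77.3 CPM to 401 CPM, 5.18-fold (4.30 to 6.30). The step from quintile 1 to quintile 2 was the largest in both libraries. Control cells of this class with no Cd34 UMI had a median of 10 antibody counts (83 cells), those with 1 to 2 UMIs 26.5 (168 cells) and those with 3 or more 50 (573 cells). Lymphoid-primed progenitor-like cells, almost uniformly positive, spanned only 305 to 471 CPM in control (1.55-fold, 1.41 to 1.70) and 294 to 396 CPM in the Mll3-labelled sample (1.35-fold, 1.20 to 1.52).

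Granulocyte progenitor-like cells, the Elane- and Mpo-expressing class, showed a wide spread. Control cells went from 8.52 CPM through 34.8, 57.6 and 68.5 to 131 CPM (15.4-fold, 8.65 to 30.1). Mll3-labelled cells went from 5.72 CPM through 8.0, 9.7 and 45.0 to 118 CPM (20.7-fold, 10.8 to 45.7). Mpo itself, a granule enzyme of the lineage, was 7099 CPM in antibody-positive and 7299 CPM in antibody-negative control cells of this class. Monocyte/macrophage progenitor-like cells went from 76.6 to 250.2 CPM in control and from 82.7 to 306 CPM in the Mll4-labelled sample. In erythroid progenitor-like control cells the change from 2.54 to 18.7 CPM went with a fall of the median depth from 50202 to 18078 UMIs, and the part of depth in it was not tested. This class pools clusters of different depth and level: control cells held 23.5 CPM at a median of 15270 UMIs in the first, 4.29 CPM at 46697 in the second and 1.62 CPM at 60335 in the last. Neither the first nor the second of these had an erythroid marker among its 10 leading genes. At the coarser clustering the cluster most like the first stayed unnamed. In B-cell progenitor-like control cells the end quintiles held 6 and 5 UMIs, too few to show a difference of this kind.

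In the Mll3-labelled sample the readouts moved apart. Transcript was lower than control in 7 of 9 classes and mean antibody count was higher in 9 of 9, by log2 0.27 to 1.09 with a median of 0.44. As a share of all surface antibody counts it was also higher in 9 of 9, by 0.14 to 1.14. These 9 include neutrophil-like, B-cell progenitor-like and erythroid progenitor-like cells, whose control counts were taken as background, with log2 ratios of 0.27, 0.30 and 0.44. Above neutrophil-like cells of the same library, the last 2 of these averaged only 0.15 and 0.43 counts. The median log2 ratio of the other antibodies was also above 0 in each of the 9 classes, from 0.14 to 0.52. A higher mean count in 9 of 9 is thus not particular to CD34. The 2 classes with higher transcript, neutrophil-like and B-cell progenitor-like, had intervals that included 0. No class was 2-fold lower for the transcript. The share of all tested genes at least 2-fold lower was 0.74% in lymphoid-primed progenitor-like, 0.943% in HSC/MPP-like, 0.685% in monocyte/macrophage progenitor-like, 0.766% in granulocyte progenitor-like, 1.07% in megakaryocyte-like, 3.1% in basophil/mast-like, 0.541% in erythroid progenitor-like, 1.86% in B-cell progenitor-like and 0.322% in neutrophil-like cells.

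**Figure D4:**
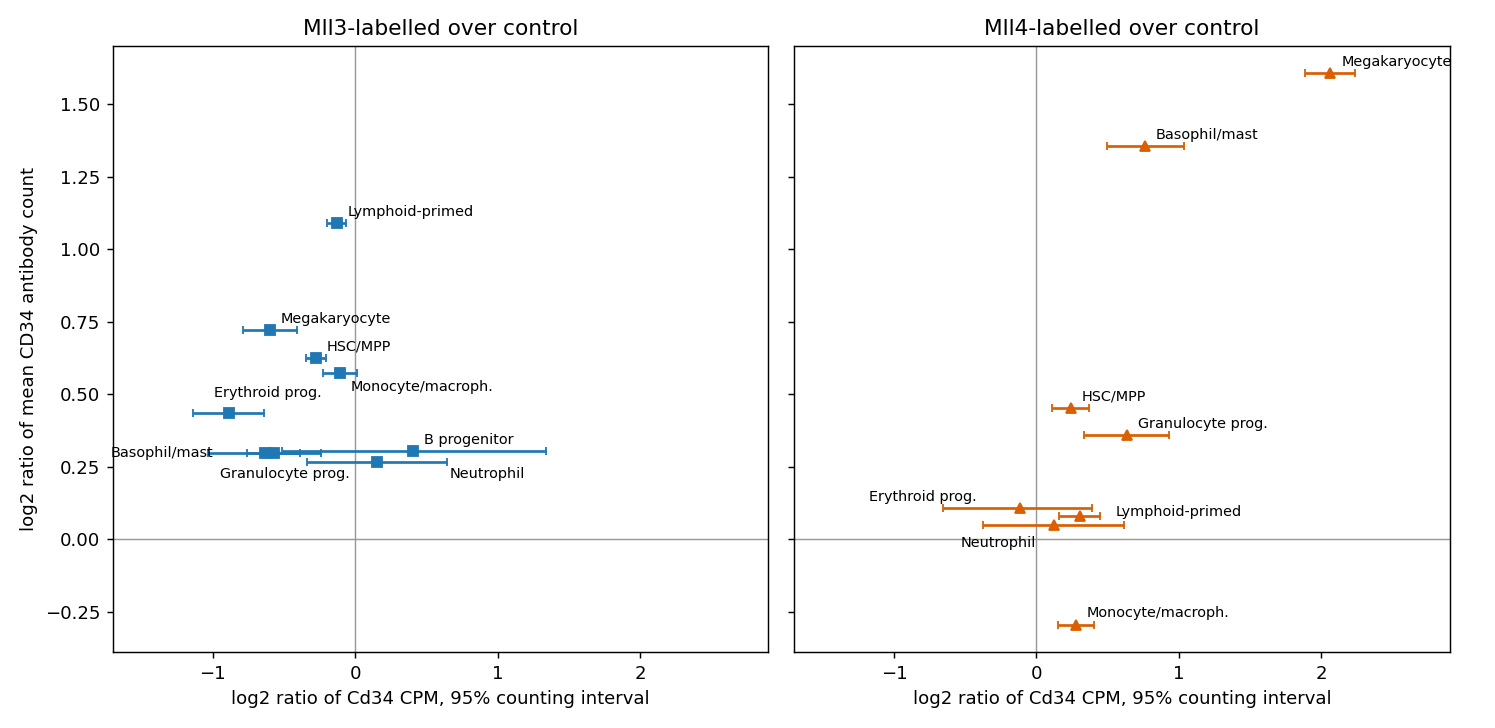
Log2 ratio to control of mean CD34 antibody count (vertical) against that of Cd34 CPM (horizontal, bars are 95% counting intervals), 1 point per class. Mll3-labelled points lie above the horizontal line and mostly left of the vertical line. Mll4-labelled points lie mostly right of it, led by megakaryocyte-like cells at 2.06 and 1.61. The Mll4-labelled B progenitor point, with 2 UMIs, is left out.

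Lymphoid-primed progenitor-like cells of the Mll3-labelled sample held 359 CPM against 393 CPM in control (log2 -0.13, -0.20 to -0.06). Their median antibody count was 76 (quartiles 49.75 and 115) against 38 (24 and 58), and the log2 ratio of means was 1.09. CD34 changed most of the 13 antibodies in this class. The median of the other 12 was 0.26. Whether this class was found at all depended on the clustering, as given above. In HSC/MPP-like cells the transcript was 288 against 349 CPM (log2 -0.28, -0.34 to -0.21) and the median antibody count 58 (31 and 97) against 40 (21 and 65). CD34 ranked 3 of 13 there by the log2 ratio of means, 0.63, below CD127 at 0.78.

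The other Mll3-labelled classes followed. Transcript log2 ratios were -0.60 (-0.79 to -0.41) in megakaryocyte-like, -0.57 (-0.76 to -0.38) in granulocyte progenitor-like, -0.63 (-1.03 to -0.24) in basophil/mast-like and -0.89 (-1.14 to -0.64) in erythroid progenitor-like cells, and -0.11 (-0.23 to 0.01) in monocyte/macrophage progenitor-like cells. Antibody log2 ratios of the first 3 were 0.72, 0.30 and 0.30, with medians over the other antibodies of 0.52, 0.50 and 0.22. CD34 thus stood below the general shift of the antibodies in granulocyte progenitor-like cells, where it ranked 8 of 13. Over all cells its log2 ratio was 0.61, rank 1 of 13, and the median of the others was 0.27. Counts above the neutrophil-like background were 22.4 per 100 CPM in HSC/MPP-like and 23.9 in lymphoid-primed progenitor-like cells of this library, against 11.6 and 9.53 in control.

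The hashtags divide each library into 2 sets of cells, and the labels used here do not say what they mark. In lymphoid-primed progenitor-like cells of the Mll3-labelled sample the mean antibody count was 107.8 with hashtag 1 and 72.4 with hashtag 2, both above the control values of 43.6 and 43.8. Transcript in the same sets was 356 and 368 CPM. In HSC/MPP-like cells the antibody medians were 63 and 43.5 against 42 and 38 in control, and the share of positive cells was 87.5% against 79.8% with hashtag 1 but 73.1% against 75.2% with hashtag 2. With the antibody threshold fitted in the Mll3-labelled sample itself, at 25.05 counts, the share of positive cells was higher than control in 5 of 9 classes, where the control threshold gave 9 of 9. The staining of 1 library and the genotype cannot be told apart here.

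In the Mll4-labelled sample the transcript was higher than control in 7 of the 8 classes with enough counts, by a median log2 of 0.29. Trimmed mean scaling took this median to 0.045, and the median of all tested genes also stood above 0 in every one of these classes, by 0.06 to 0.22. The ratio and the lower end of its interval were above that shift in megakaryocyte-like, basophil/mast-like and granulocyte progenitor-like cells. In HSC/MPP-like cells the lower end, 0.1109, was barely above the shift of 0.1101. Megakaryocyte-like cells held 167 CPM (153 to 182) against 39.98 CPM (36.8 to 43.4), a log2 ratio of 2.06 (1.89 to 2.24), the only 1 of the 8 classes past 2-fold, where 5.39% of tested genes were at least 2-fold higher. That share was 6.52% in lymphoid-primed progenitor-like, 4.73% in HSC/MPP-like, 7.24% in monocyte/macrophage progenitor-like, 7.98% in granulocyte progenitor-like, 10.4% in basophil/mast-like, 3.88% in erythroid progenitor-like and 2.91% in neutrophil-like cells. Basophil/mast-like cells held 365 CPM (321 to 412) against 215 CPM (187 to 246), a log2 ratio of 0.76 (0.49 to 1.03). The cells of this class differed otherwise too: the mast cell proteases Cpa3 and Cma1 stood at 8055 and 3163 CPM against 1544 and 184 CPM, and Kit at 1618 against 334 CPM. Their part in the Cd34 difference was not tested. Granulocyte progenitor-like cells held 102 CPM (84.4 to 122) against 65.6 CPM (60.2 to 71.3), a log2 ratio of 0.64 (0.34 to 0.93), which was -0.052 with doublets kept.

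The antibody was higher by its mean count in megakaryocyte-like, basophil/mast-like and granulocyte progenitor-like cells, and by its median in only the first 2. Its median in megakaryocyte-like cells was 21 (quartiles 10 and 45) against 9 (6 and 13), and its log2 ratio of means, 1.61, was the highest of the 13 antibodies, whose other members had a median of 0.75. In basophil/mast-like cells the median was 22 (11 and 47.75) against 12 (8 and 17), with a log2 ratio of 1.35 that ranked 5 of 13, the others having a median of 1.01. In granulocyte progenitor-like cells the medians were 11 and 12, and the log2 ratio of means was 0.36. The mean count was higher than control in 7 of the 8 classes, by a median log2 of 0.23. As a share of all antibody counts, CD34 was higher in 3 of the 8 classes and lower in 5. The 3 were megakaryocyte-like, basophil/mast-like and granulocyte progenitor-like cells, by log2 1.25, 0.71 and 0.32.

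The megakaryocyte-like value depends on where the class ends. The log2 ratio was 0.43 at a coarser and 0.41 at a finer clustering, 1.02 with another seed and 0.74 with doublets kept. Within the 2 clusters of the class it was higher in both, at 213 against 41.7 CPM in 1 and 84.7 against 38.6 CPM in the other. In the Mll4-labelled sample the 287 antibody-positive cells of the class held 278 CPM of Cd34 and 452 CPM of Pf4, a platelet chemokine that marks the lineage, while the 250 negative cells held 51.0 CPM of Cd34 and 2707 CPM of Pf4. Control had the same division, with 97.3 CPM of Cd34 and 638 CPM of Pf4 in 85 positive cells and 32.8 and 2466 CPM in 670 negative cells. Positive cells, low in Pf4, made up 53.4% of the Mll4-labelled class and 11.3% of the control class. Within the CD34-positive cells the stem cell gene Hlf, a fixed marker of the HSC/MPP-like class, was 145 CPM in the Mll4-labelled sample and 47.7 CPM in control. At the finer clustering the megakaryocyte-like clusters held 173 and 81 Mll4-labelled cells, against 402 and 135 in the main clustering. An unnamed cluster there held 281 Mll4-labelled and 2 control cells. It scored highest for HSC/MPP markers but had more leading genes from the dendritic markers. How many of its cells were megakaryocyte-like in the main clustering was not examined.

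The remaining Mll4-labelled classes moved less. HSC/MPP-like cells held 412 CPM (379 to 449) against 349 CPM (log2 0.24, and 0.050 under trimmed mean scaling), with a median antibody count of 56 against 40. Of these cells 143 of 183 came from a single cluster that held 290 of 824 control cells. Within it the levels were 419 CPM in the Mll4-labelled and 386 CPM in the control library. Lymphoid-primed progenitor-like cells held 485 against 393 CPM (log2 0.30, and 0.041 under that scaling) with antibody medians of 41 and 38. Monocyte/macrophage progenitor-like cells differed in sign between readouts, with 224 against 185 CPM (log2 0.28, and 0.017 under that scaling) and antibody medians of 36 against 49. This class too depends on the clustering. At the finer clustering it held 49 Mll4-labelled cells, against 606 in the main clustering. An unnamed cluster there held 461 Mll4-labelled and 0 control cells. It scored highest for granulocyte progenitor markers but had more leading genes from the monocyte/macrophage progenitor markers. How many of its cells were monocyte/macrophage progenitor-like in the main clustering was not examined. Erythroid progenitor-like cells, at 5.17 against 5.59 CPM, and neutrophil-like cells, at 4.14 against 3.80 CPM, had intervals of the ratio that included 0.

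Where the Cd34 molecules sat also differed. In control 40.1% of Cd34 UMIs came from lymphoid-primed progenitor-like cells (11.0% of cells), 35.2% from HSC/MPP-like cells (11.53%) and 9.75% from monocyte/macrophage progenitor-like cells (3.95%). The Mll3-labelled sample was alike, with 36.4% and 36.2% from the first 2. In the Mll4-labelled sample 31.9% came from monocyte/macrophage progenitor-like cells (11.3% of cells), 19.1% from HSC/MPP-like cells (3.42%), 17.8% from megakaryocyte-like cells (10.0%) and 14.7% from lymphoid-primed progenitor-like cells (2.50%). Neutrophil-like cells made up 50.2% of that library and gave 2.02% of its Cd34 UMIs.

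In the Mll3/4-labelled sample 6831 of 6917 cells, 98.8%, were B-cell progenitor-like, and these held 6 Cd34 UMIs in all. Their level was 0.0791 CPM (0.029 to 0.172) against 6.29 CPM in control cells of the class, a log2 ratio of -6.31 (-7.92 to -4.94), where 7.4% of tested genes were at least 2-fold lower. The 6.29 CPM of control is itself near the 3.80 CPM of neutrophil-like cells of that library. Nearly all of these cells fell in 5 clusters that held 1 control and 1 Mll4-labelled cell besides. The other control cells of the class, 316 and 154, fell in 2 clusters at 9.52 and 3.65 CPM that held 5 and 2 Mll3/4-labelled cells, so class and library cannot be told apart here. Their antibody median was 1 (quartiles 0 and 2) against 6 (4 and 8), and their mean, 1.56, was near the 1.48 of the 23 neutrophil-like cells of the library.

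The 86 other cells of this library held 123 of its 129 Cd34 UMIs, at 69.8 CPM (58.0 to 83.3), and 2 of them shared a barcode with another library. Among them 11 HSC/MPP-like cells held 60 UMIs (275 CPM, 209.6 to 354), with a median antibody count of 47 and a UMI in 11 of 11. The level of control HSC/MPP-like cells, 349 CPM, lay inside that interval. In 9 monocyte/macrophage progenitor-like cells there were 30 UMIs (87.2 CPM, 58.8 to 124) and a median antibody count of 50, beside 185 CPM and 49 in control. Both groups are under the 50 cells set for a class comparison. They show that the antibody gave high counts in single cells of this library.

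Sorting gates drawn from the antibodies gave a second division of the cells, with thresholds fitted in control. Among CD117+ Sca1+ cells, which include the stem cells, the CD150+ CD48- gate is the one richest in long-term stem cells. In control it held 131 CPM of Cd34 (240 cells, median antibody count 18). The CD150- CD48+ gate, of multipotent and lymphoid-biased progenitors, held 413 CPM (328 cells, median 61.5). The log2 ratio between them was -1.66 (-1.81 to -1.51). It was -1.87 (-2.03 to -1.71) in the Mll3-labelled sample, from 86.7 and 317 CPM, and -1.14 (-1.56 to -0.75) in the Mll4-labelled sample, from 158 and 350 CPM over 77 and 137 cells. Lower Cd34 in the CD150+ CD48- gate was thus seen in these 3 libraries with both readouts, the antibody medians being 22 and 95 in the Mll3-labelled and 23 and 44 in the Mll4-labelled sample.

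**Figure D5:**
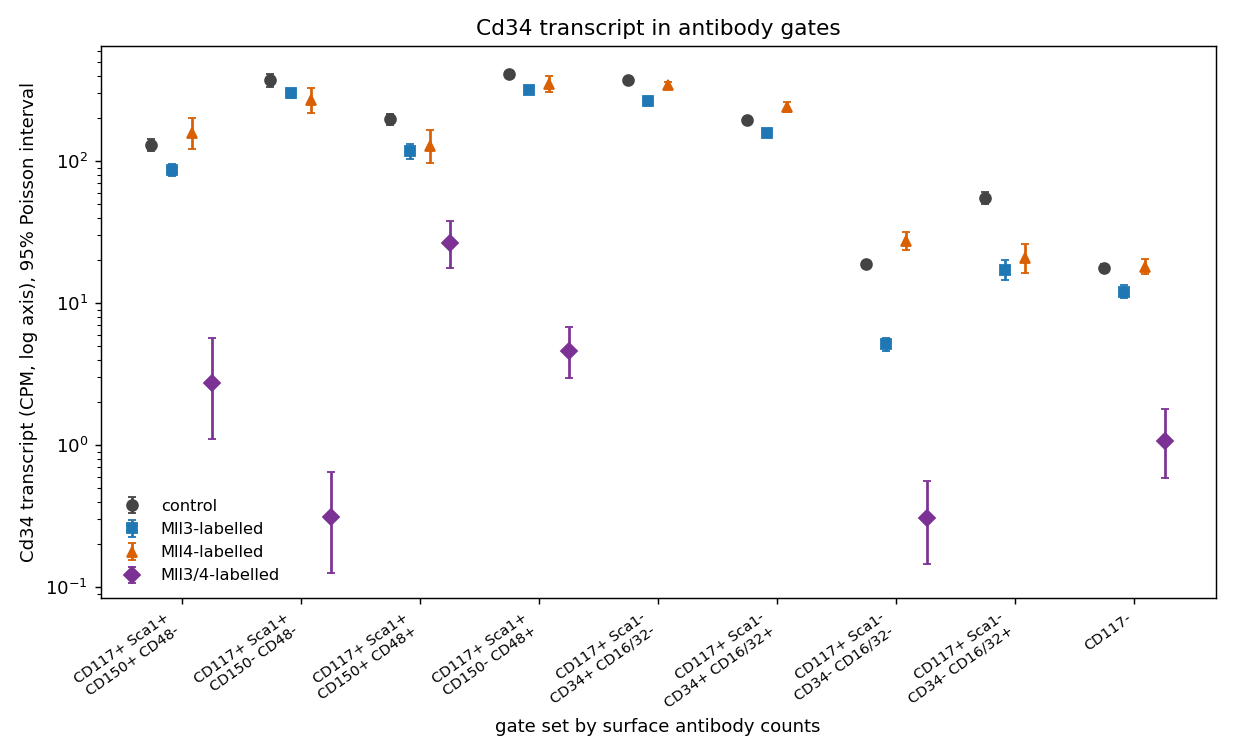
Cd34 CPM (log axis, 95% Poisson intervals) in gates set by surface antibody counts, with at least 50 cells per point. The CD150+ CD48- gate lies below the CD150- CD48+ gate in control, Mll3-labelled and Mll4-labelled cells, and Mll3/4-labelled points lie at 26.3 CPM or below.

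Among CD117+ Sca1- cells, textbook myeloid progenitors are divided by CD34 and CD16/32. The CD34+ CD16/32- gate (common myeloid progenitors) held 374, 267 and 342 CPM in control, Mll3-labelled and Mll4-labelled cells. The CD34+ CD16/32+ gate (granulocyte-monocyte progenitors) held 194, 158 and 242 CPM. The CD34- CD16/32- gate (megakaryocyte-erythroid progenitors) held 18.8, 5.14 and 27.3 CPM. Because these gates use the CD34 antibody, the comparison of transcript across them is a second view of the agreement above. The log2 ratio of CD34+ over CD34- cells was 4.31 (4.22 to 4.40), 5.70 (5.54 to 5.87) and 3.65 (3.43 to 3.88) among CD16/32- cells. The CD34- CD16/32+ gate held 55.1 CPM in control against 17.1 and 20.9 CPM in the other 2 libraries.

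In the Mll3/4-labelled sample 2629 cells passed the CD117+ Sca1+ gate and 99.0% of them were B-cell progenitor-like, so the gate did not hold the cells it is named for. They held 2.20 CPM of Cd34 against 287 CPM in control. Its CD150+ CD48- cells held 2.75 CPM, and its CD150+ CD48+ cells 26.3 CPM over 71 cells.

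The relatives and partners of CD34 were counted from a fixed list, with a gene called at 2-fold on at least 20 UMIs. Over all cells of the Mll3-labelled sample none of the 3 family genes, 8 stem cell transcription factors or 20 progenitor surface genes passed 2-fold, where 0.199% of genes were higher and 0.467% lower. In the Mll4-labelled sample (5.74% higher, 2.91% lower) Emcn was lower at 0.76 against 2.98 CPM. Of the 20 surface genes there, Csf1r and Prom1 were higher and Eng lower, and none of the 8 transcription factors passed 2-fold. Neutrophil-like cells were 50.2% of that library and 24.9% of control. Within HSC/MPP-like cells Emcn was 4.52 CPM in the Mll4-labelled sample and 20.5 CPM in control, while Cd34 stayed within 2-fold. Podxl had 0 UMIs of 1328567 gene UMIs in Mll4-labelled cells of this class and 35 of 12515194 in control. With such unlike depths and few UMIs, a loss of Podxl cannot be read from these counts. In that class 6 of 17 tested surface genes were lower, among them Ly6a, Procr, Eng, Cd9 and, on 4 UMIs with an interval that included 0, Slamf1, where 5.57% of genes were. The cluster of the class led by Ly6a, Procr, Mecom and Hlf held 534 of 824 control cells and 40 of 183 Mll4-labelled cells, and its part in these differences was not tested.

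Over all cells of the Mll3/4-labelled sample (12% of genes higher, 11.7% lower) 13 of 20 surface genes were lower, 4 higher, and the median log2 ratio was -1.93 beside -0.01 over all tested genes. Those higher were Il7r, the receptor of the B-cell growth factor interleukin 7, at 689 against 6.41 CPM, Flt3 at 29.4 against 11.1 CPM, Ly6a at 28.7 against 7.85 CPM and Cd38 at 3.72 against 1.27 CPM. Lower genes included Procr at 0.05 against 2.72 CPM and Itga2b, the integrin subunit detected as CD41, at 0.36 against 30.02 CPM. Of the 8 transcription factors 4 were lower, namely Gata2 at 1.27 against 60.1 CPM, Tal1 at 0.79 against 68.5 CPM, Lyl1 at 1.82 against 58.8 CPM and Lmo2 at 5.90 against 336 CPM. Erg was higher at 143 against 28.1 CPM, and Fli1, Runx1 and Myb stayed within 2-fold. Podxl was 3.40 against 14.2 CPM and Selp, which encodes P-selectin, 0.71 against 13.8 CPM, while the adaptor Crkl was 29.7 against 18.3 CPM. These sums carry the change in makeup described above.

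Within the B-cell progenitor-like class, where 9.45% of genes were at least 2-fold higher, Podxl went the other way from Cd34, at 3.39 CPM (257 UMIs) against 0.63 CPM (2 UMIs), and Lmo2 and Lyl1 were lower, at 1.62 against 63.5 CPM and 0.69 against 64.4 CPM. Erg, Fli1, Runx1 and Myb were not past 2-fold in that class.

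Of the 8 annotated genes other than Cd34 with a part within 500 kb of it, 6 had at least 20 UMIs. Plxna2, a semaphorin receptor upstream of Cd34, was the 1 called of 6, at 4.26 against 0.20 CPM in the Mll3/4-labelled sample, where 12% of all tested genes were higher and 11.7% lower. Downstream, the complement regulators Cr1l and Cd46 stood at 64.8 against 61.7 CPM and 2.65 against 1.78 CPM in that comparison. None of the 6 passed 2-fold in the Mll3-labelled sample, where 0.199% of genes were higher and 0.467% lower, or in the Mll4-labelled sample, where 5.74% were higher and 2.91% lower. The antisense gene Gm16897, which overlaps Cd34, had 1 UMI in the Mll3/4-labelled sample and 35 in control, too low a level to pass 2-fold on the CPM + 1 scale.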

How the data were processed

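Droplet single-cell libraries with surface antibody barcodes were analysed from 1 library per group. Per the file headers, the deposited matrices hold raw UMI counts of genes and antibodies made with Cell Ranger 6.1.2, and per the submitters' processing notes the build was mm10. How cells were called, the annotation release and the use of strand are not given in the sources used here. Of the gene identifiers, 32158 of 32285 matched GENCODE M21, from which gene positions come.

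Cells were kept with at least 500 genes, 1000 UMIs and at most 10% mitochondrial UMIs. The highest Scrublet scores (expected rate 0.06) marked 622, 481, 299 and 491 cells for removal, 0.8% for each 1000 barcodes. Of the kept cells, 1.57% to 4.64% per library were positive for both hashtags, so doublets remain. With scanpy 1.11.5, cells were clustered on 2000 variable genes without Cd34 (30 components, 15 neighbours, Leiden resolution 1, seed 0) and clusters named from fixed markers. Classes with at least 50 cells in both libraries were compared. CPM is the sum of a gene's UMIs over cells per 1000000 gene UMIs. Calls use CPM + 1.

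Intervals are exact Poisson (levels), exact Clopper-Pearson (shares) and conditional binomial (ratios) from scipy 1.17.1, and cover counting error only. Named genes were Cd34, members of the fixed lists, the 5 genes most like each readout and the 3 least like the transcript, with mitochondrial, Y-linked and Xist genes left out. The gene ranking and the ratio interval were checked on simulated counts. Some members of the fixed lists are not reported here. The feature, lists and tests were chosen with earlier results of these data known. Alternatives covered filters, doublets, clustering, scaling, thresholds and hashtags.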

Additional observations from a re-analysis of the deposited data

Results flagged for a closer look

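In 5 classes the share of cells above the CD34 antibody threshold differed between the Mll4-labelled sample and control by more than the counting intervals, and not all in 1 direction. The share was higher by 42.2 percentage points in megakaryocyte-like cells (53.4% against 11.3%), by 39.4 points in basophil/mast-like cells (55.6% against 16.1%), by 10.9 points in HSC/MPP-like cells (89.1% against 78.2%) and by 10.9 points in lymphoid-primed progenitor-like cells (94.0% against 83.1%). In monocyte/macrophage progenitor-like cells the difference was -12.6 points (72.1% against 84.8%). At the finer clustering (resolution 2) the share was higher than control in 7 of 7 classes compared, which did not include this class, as it held 49 Mll4-labelled cells there. With 1 library per group the difference between classes was not tested.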

How the results depend on the processing

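Results are limited by 1 library per group and, for low classes, by counts of 2 to 24 Cd34 UMIs. No paired analysis was possible because each group has 1 library. Of the values that answer a comparison, 55 alternatives stayed within the spread allowed, 39 moved and 1 reversed. For single classes the figures were 88, 26 and 2. Where the interval of the main value included 0, a change of sign was not counted as reversed but as stayed or moved. The Mll3-labelled ratio over all cells (log2 -0.46) was -0.51 with no filter on cells, -0.53 with doublets kept, -0.42 under trimmed mean scaling, -0.38 by the mean of each cell's share, -0.53 with hashtag 1 and -0.42 with hashtag 2. The Mll4-labelled ratio (0.12) was 0.044 with doublets kept, 0.015 under trimmed mean scaling, 0.21 with hashtag 1 and -0.15 by the mean of each cell's share. The Mll3/4-labelled ratio (-5.60) was -6.81 by the mean share, -6.10 with hashtag 1 and -5.17 with hashtag 2. The median over Mll4-labelled classes (0.29) was 0.15 with another seed, 0.045 under trimmed mean scaling and 0.53 over single clusters. In single classes, Mll4-labelled monocyte/macrophage progenitor-like cells turned to -0.059 with another seed and granulocyte progenitor-like cells to -0.052 with doublets kept. The hashtag sets, single clusters, the antibody count above neutrophil-like cells, and the refit of CD150 and CD48 below, were chosen after seeing the data. The causes were not tested.

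The median class difference in percent of antibody-positive cells was 2.15 points for the Mll3-labelled sample and 0.024 with its own threshold. For the Mll4-labelled sample it was 7.18 points, 1.80 with the threshold at the 95th percentile of control neutrophil-like cells (12 counts), 9.53 at resolution 2, 5.07 with another seed and 0.28 with hashtag 2. Over all cells the percent positive with that neutrophil-like threshold was 33.5 in control, 38.4 in the Mll3-labelled and 30.6 in the Mll4-labelled sample. By the centred log ratio it was 26.8 in control, 20.3 in the Mll4-labelled and 0.25 in the Mll3/4-labelled sample. With doublets kept it was 26.9 in control and 30.7 in the Mll3-labelled sample, and with no filter on cells 27.0 in the latter and 26.7 in the Mll4-labelled sample. A threshold fitted in each library gave 25.1 in the Mll3-labelled sample and 70.1 in the Mll3/4-labelled sample, where it fell at 0.00916 counts and is of no use.

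The median log2 ratio between end quintiles (2.37) was 1.83 by the share of antibody counts and 2.08 in thinned cells. The CD150 and CD48 ratio was -1.94 in control and 0.72 in the Mll3/4-labelled sample (main value -0.74, its interval including 0) with those thresholds refitted within CD117+ Sca1+ cells. With thresholds fitted in each library the CD34+ over CD34- ratio in the Mll3-labelled sample was 5.46 among CD16/32- and 2.78 among CD16/32+ cells, and 3.16 among CD16/32+ cells of the Mll4-labelled sample. The r between readouts ran from 0.89 to 0.94 over its 9 alternatives, each library left out included.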
